A study of Danio rerio with 6 samples.

Results

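The genes described here are 10 zebrafish genes of the thymus and the T lymphocyte: rag1, rag2, lck, zap70, ikzf1, foxn1, tox, cd4-1, cd8a and ptcra. They were taken by symbol from a count table of 32520 genes, in which 9 of them were matched. The gene ptcra was not analysed here. The thymus is the organ in which T lymphocytes mature. Blood progenitors enter it along chemokine trails laid by its epithelium, cut and rejoin their antigen receptor genes there, and are then selected through the signals of the assembled receptor. The zebrafish thymus is colonised around hatching, shortly before the age studied here, and lymphocyte transcripts are a small part of the RNA of a whole animal at this stage.

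RNA was sequenced from whole embryos aged 5 days post fertilization, in 3 libraries labelled wild type and 3 labelled sas10 mutant. Sas10, encoded by utp3, is a protein of the nucleolar particle that makes the small ribosomal subunit. The labels name neither the allele nor the clutches and call the libraries biological repeats, so the p-values measure only the spread between these samples. Libraries are named by their column headings, wt11, wt12 and wt13 for wild type and s1, s2 and s3 for the mutants. Each library held between 17599625 and 19718753 gene counts. The transcript of utp3 was at 32.3 ± 4.43 CPM (counts per 1000000 on scaled library sizes) in wild type and at 10.8 ± 0.42 CPM in the mutants (SD, n = 3 each). Library wt11 stood furthest from its group, with a second principal component score of 42.3 against -27.4 to 9.33 elsewhere, and values without it are given where they matter.

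How did transcripts of thymus and T lymphocyte genes differ between the genotypes? They were mostly lower in the mutants: rag1 and foxn1 were reduced to 8.21% and 8.47% of their wild type mean, lck and zap70 to 16.9% and 19.2%, and tox only to 52.6%. The 8 matched genes other than tox summed to 22.4, 23.0 and 20.7 CPM in wt11, wt12 and wt13, and to 2.71, 3.47 and 3.88 CPM in s1, s2 and s3. The groups of this sum did not overlap, and the spread within each was narrow beside the gap between them. Much of the wild type sum was rag1. Without rag1 the sum was 11.8, 9.07 and 9.68 CPM in wt11, wt12 and wt13 and 2.17, 2.50 and 2.49 CPM in s1, s2 and s3. Among the 9 matched genes, 7 passed the filter on low counts and all 7 were called lower (adjusted p under 0.05 by the quasi-likelihood test of edgeR, with Benjamini-Hochberg adjustment over 21708 genes). Across all genes tested, 31.8% were called lower and 30.5% higher, and 34.1% had no mutant library reaching the lowest wild type one, as was the case for each of the 7. Nothing is read from the count of 7, because 5 of the 7 reached the filter's level in all wild type libraries but not in all mutant libraries. In RNA from whole embryos, fewer cells of a type and less RNA per cell cannot be told apart.

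**Figure D1:**
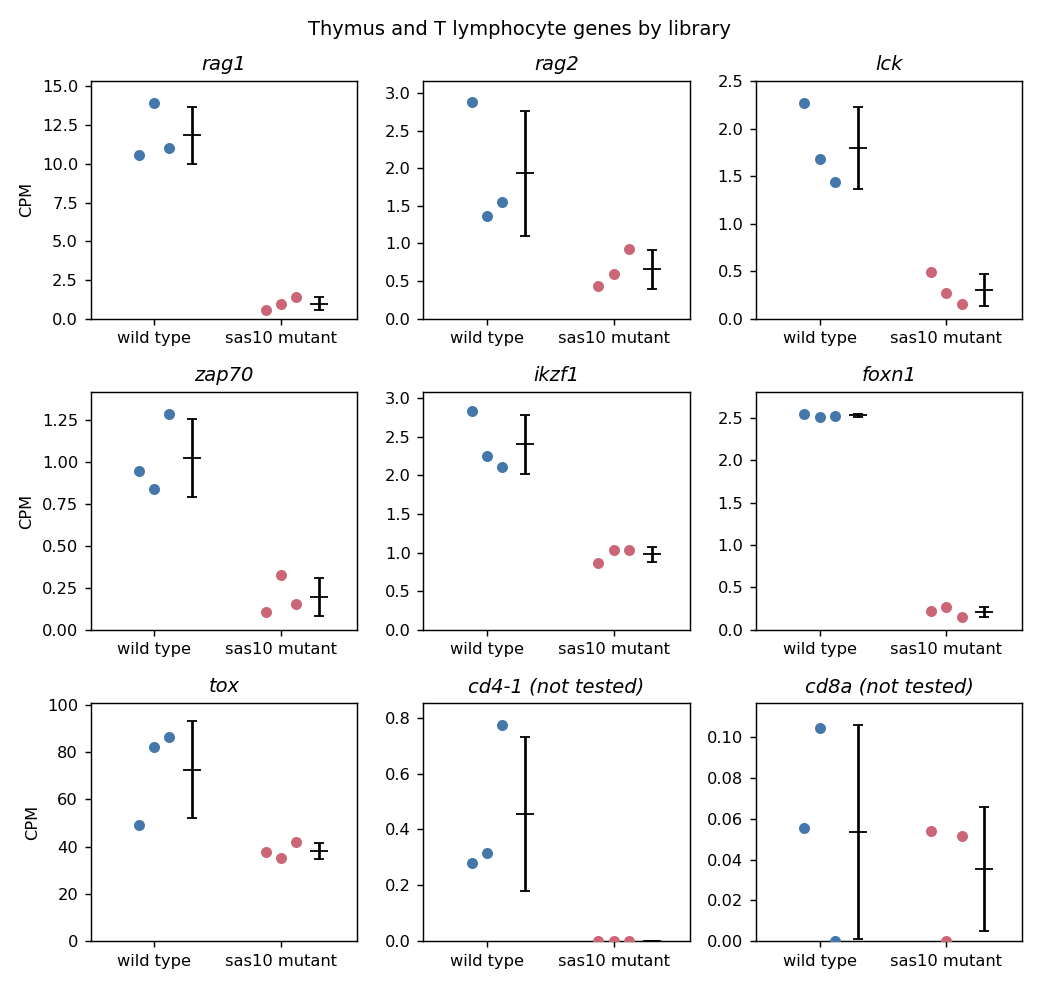
Level of each matched gene in CPM (vertical axes from 0, scaled per gene) in the 3 wild type and 3 sas10 mutant libraries, ordered as wt11, wt12, wt13 and s1, s2, s3, with bars for the mean and SD of each group. For the 7 tested genes every mutant point lies below every wild type point. For cd4-1 the mutants are at 0, and for cd8a the groups overlap.

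The thymic epithelium was represented by foxn1, the transcription factor that thymic epithelial cells need to form a working thymus and whose loss in mouse leaves it without T cells. The gene lies on GRCz11 chromosome 15 at 28129683 to 28161224. It had 46, 48 and 49 counts in wt11, wt12 and wt13 (2.55, 2.52 and 2.52 CPM) and 4, 5 and 3 counts in s1, s2 and s3 (0.22, 0.27 and 0.16 CPM). All libraries of a genotype were close to each other and the groups were far apart. Its log2 fold change was -3.53 ± 0.36 (SE; adjusted p = 6.25e-06), which is 11.5-fold lower.

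The recombinase genes rag1 and rag2 encode both subunits of the enzyme that cuts antigen receptor genes in developing lymphocytes. They lie tail to tail on chromosome 25, rag1 at 9003230 to 9009902 on the plus strand and rag2 at 9010425 to 9013963 on the minus strand, with 522 bases between them. Counts of rag1 were 190, 266 and 214 in wt11, wt12 and wt13 (10.5, 13.9 and 11.02 CPM) and 10, 18 and 27 in s1, s2 and s3 (0.54, 0.98 and 1.398 CPM). The lowest wild type library was thus well above the highest mutant library, and the log2 fold change was -3.59 ± 0.27 (adjusted p = 6.07e-07). In the authors' deposited table the log2 fold change of rag1 is -3.67, with a standard error of 0.31.

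The partner gene fell too. Counts of rag2 were 52, 26 and 30 in wild type (2.89, 1.36 and 1.54 CPM) and 8, 11 and 18 in the mutants (0.43, 0.60 and 0.93 CPM). The groups did not overlap, but the lowest wild type library was close to the highest mutant one. The log2 fold change was -1.54 ± 0.41 (adjusted p = 0.00621), and -1.13 without wt11, the library highest in this gene.

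Per length, rag1 exceeded rag2 in wild type and not in the mutants. The ratio of rag1 to rag2 in RPKM (CPM per kilobase of exon) was 1.81, 5.06 and 3.53 in wt11, wt12 and wt13 and 0.62, 0.81 and 0.74 in s1, s2 and s3. Every mutant ratio was below 1 and every wild type ratio above it. The mean log2 ratio went from 1.67 ± 0.75 to -0.48 ± 0.20 (SD, n = 3 each), a difference of -2.15 with an exact two-sided permutation p = 0.1, the smallest that 3 against 3 libraries allow. Counting used no strand option, so a transcript running on from one of these converging genes into the other would be counted with it.

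**Figure D2:**
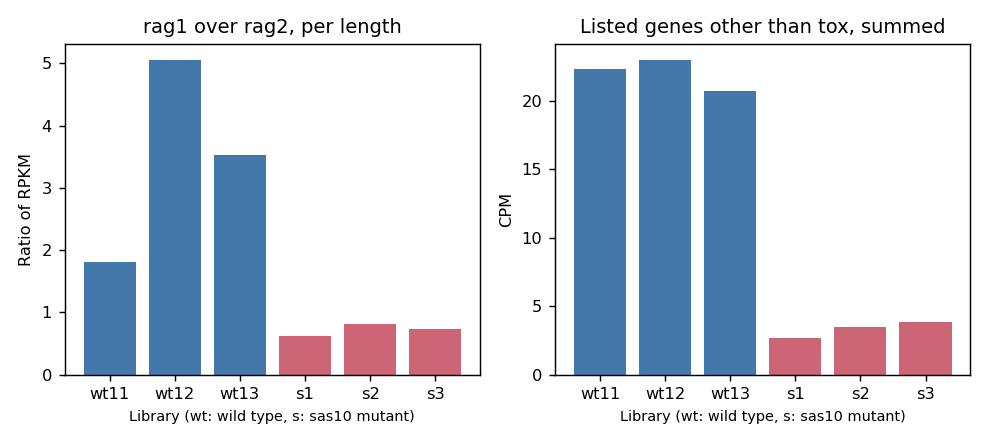
Left, ratio of rag1 to rag2 in RPKM per library. Right, summed CPM of the 8 matched genes other than tox per library. Bars are single libraries, blue for wild type and red for sas10 mutant. The mutant ratios run from 0.62 to 0.81 and the mutant sums from 2.71 to 3.88 CPM, below all wild type values.

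Neighbouring genes were read as well. The nearest neighbour beyond rag2, iftap, overlaps its span with no shared exon base and rose from 2.26 to 4.44 CPM (log2 0.97, adjusted p = 0.00234). On the other side, accs stood at 8.75 CPM in wild type, against 8.85 in the mutants (log2 0.016, adjusted p = 0.929). The 9 matched genes lie on 8 chromosomes and none on chromosome 11, which carries utp3. Among the 32 annotated genes next to them, up to 2 on each side, 7 were lower, 6 higher and 10 not called, and 9 were not tested. Over all genes tested, 31.8% were lower and 30.5% higher, so nothing is read from these counts.

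Both proximal kinase genes of the T cell receptor fell. The Src family kinase gene lck, whose product phosphorylates the receptor chains, lies on chromosome 17 at 25344734 to 25382376. It had 41, 32 and 28 counts in wild type (2.28, 1.68 and 1.44 CPM) and 9, 5 and 3 in the mutants (0.49, 0.27 and 0.16 CPM), a log2 fold change of -2.54 ± 0.43 (adjusted p = 0.000325). The kinase gene zap70, whose product docks on the phosphorylated chains, lies on chromosome 8 at 20393250 to 20414364. It had 17, 16 and 25 counts in wild type (0.94, 0.84 and 1.29 CPM) and 2, 6 and 3 in the mutants (0.11, 0.33 and 0.16 CPM), a log2 fold change of -2.35 ± 0.49 (adjusted p = 0.00142). In neither gene did the groups overlap. The mutant libraries did not keep one order across genes: rag1 and rag2 were lowest in s1 and highest in s3, whereas lck was highest in s1 and lowest in s3.

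In the fit of all libraries, the lymphocyte transcription factor genes ikzf1 and tox had the smallest fold changes among the 7 tested genes, unlike foxn1 of the epithelium. This order rested on wt11: without it the log2 fold changes of rag2, tox and ikzf1 were -1.13, -1.13 and -1.14. Ikaros, the zinc finger factor encoded by ikzf1 (chromosome 13, 15957508 to 15994472), acts from the blood progenitor onward and is needed for lymphocyte development in mouse and zebrafish. It had 51, 43 and 41 counts in wild type (2.83, 2.25 and 2.11 CPM) and 16, 19 and 20 in the mutants (0.87, 1.03 and 1.04 CPM). The mutants lay close together at 40.8% of the wild type mean, and the log2 fold change was -1.29 ± 0.28 (adjusted p = 0.00185). On library sizes without scaling, which the filter uses, this gene and tox were the ones that reached the filter's level in every library of both genotypes, and rag1 missed it in s1 alone, at 0.524 against 0.530 CPM.

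The gene tox (chromosome 2, 21982911 to 22108108) encodes an HMG box protein that developing CD4 T cells need in mouse, where it is also transcribed in the developing brain. Its counts were 884, 1570 and 1675 in wt11, wt12 and wt13 (49.1, 82.3 and 86.3 CPM) and 692, 645 and 809 in the mutants (37.5, 35.0 and 41.9 CPM). Library wt11 lay between the other wild type libraries and the mutants. The log2 fold change was -0.93 ± 0.19 (adjusted p = 0.00172), and -1.13 without wt11. The authors' deposited table gives -0.999 with a standard error of 0.21 for this gene, which with rag1 makes 2 of the 9 genes that the table lists. The genes foxn1, lck, zap70, rag2 and ikzf1, called lower here, are absent from it. The smallest mean signal it lists is 2.04, and the reason for their absence was not tested.

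Neuronal transcripts were lower too. Of 16 neuron markers, all tested, 13 were called lower and 0 higher by edgeR (median log2 -0.82, against -0.04 over all genes tested), and no marker was at 0 in either genotype. Their summed level was 1793, 2026 and 2210 CPM in wt11, wt12 and wt13 and 1071 to 1239 CPM in the mutants, so wt11 was the lowest wild type library here too. Across all genes tested, 31.8% were lower and 30.5% higher. Of 16 markers of olfactory sensory neurons, which show rag1 reporter activity in zebrafish, 14 were tested, 9 were lower and 1 was higher (median log2 -0.67). Of the tested markers, 2 reached the filter's level in all libraries of wild type only. The sum of the 16 markers ran from 252.9 to 290.7 CPM in wild type and from 150.9 to 165.6 CPM in the mutants. At 0 counts in the mutants was 1 marker copy, of cnga2. The part of either cell type in the levels of tox and rag1 was not tested.

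The coreceptor genes were near or below the limit of detection. The gene cd4-1 encodes the CD4 coreceptor of helper T cells and lies on chromosome 16 at 11911897 to 11946139. It had 5, 6 and 15 counts in wt11, wt12 and wt13 and 0 in every mutant library, and was therefore at least 8.62-fold lower if the mutants as a group are given 3 counts. It missed the filter, and without a filter its adjusted p was 0.00105 over 28103 genes. The CD8 alpha chain gene cd8a, on chromosome 21 at 11560153 to 11563406, had 1, 2 and 0 counts in wild type and 1, 0 and 1 in the mutants, so no difference was detectable at this depth. Intervals and floors cover counting error only.

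More counts were seen in the mutants for the other CD8 gene. The gene cd8b, the neighbour of cd8a, had 0, 2 and 1 counts in wt11, wt12 and wt13 and 11, 9 and 4 in s1, s2 and s3. Its ratio of mutant to wild type was 8.05, with an exact 95% counting interval of 2.44 to 41.7, and without a filter its adjusted p was 0.0109. The CD4-like gene cd4-2.2 had 10 counts in each genotype.

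Levels were then compared between genes per length of exon. In wild type the order of mean RPKM was tox at 11.2 ± 3.16, rag1 at 2.18 ± 0.34, ikzf1 at 0.89 ± 0.14, lck at 0.85 ± 0.20, foxn1 at 0.83 ± 0.01, rag2 at 0.72 ± 0.31, zap70 at 0.40 ± 0.09, cd4-1 at 0.22 ± 0.13 and cd8a at 0.04 ± 0.04 (SD, n = 3). The libraries of tox and rag1 lay apart from those of the next gene, and so did those of rag2, by a small margin, and of cd4-1. Libraries overlapped between ikzf1 and lck, lck and foxn1, foxn1 and rag2, and zap70 and cd4-1. In the mutants the order changed: ikzf1 came next after tox, at 0.36 ± 0.04 RPKM, followed by rag2 at 0.24 ± 0.09, rag1 at 0.18 ± 0.08 and lck at 0.14 ± 0.08, and foxn1 dropped to 0.07 ± 0.02. From ikzf1 down to foxn1 each mutant gene overlapped the next.

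**Figure D3:**
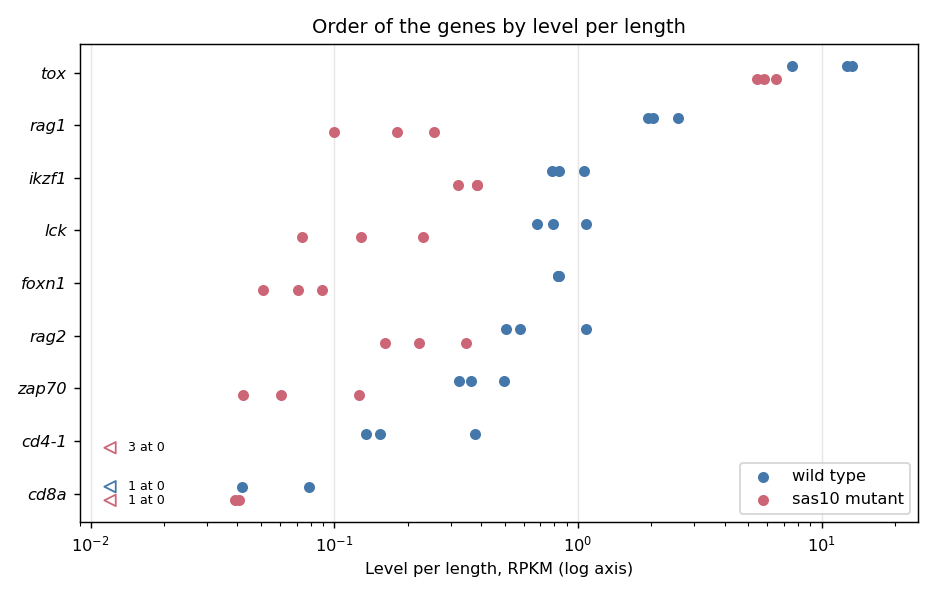
Level per length in RPKM (log axis) of the 9 matched genes in each library, ordered by wild type mean, with blue points for wild type and red points for sas10 mutant. Open triangles at the left edge mark libraries at 0, which have no place on a log axis. The gap between colours is widest for rag1 and foxn1 among the genes with counts in all libraries and narrowest for tox.

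The list of T cell receptor chains, coreceptors and signalling genes held 29 matched genes, of which 22 were tested, 8 were lower and 8 higher (median log2 -0.47). These are 36.4% in either direction, near the 31.8% lower and 30.5% higher over all genes tested. Of the tested genes, 5 reached the filter's level in all libraries of wild type only. The T cell kinase gene itk, which acts just downstream of lck and zap70, had 13, 14 and 20 counts in wild type and 0, 1 and 1 in the mutants, which is 23.4-fold more in wild type (exact 95% counting interval 6.12 to 198.6) (adjusted p = 0.00021). Its relative tec fell from 2.47 ± 0.27 to 1.04 ± 0.21 CPM (log2 -1.25 ± 0.28, adjusted p = 0.0023).

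Not every T cell gene of that list moved. The receptor zeta chain gene cd247 had 0.54 ± 0.29 CPM in wild type, against 0.57 ± 0.12 in the mutants (log2 0.09 ± 0.50, adjusted p = 0.882), a value that turned to -0.29 without wt13, to -0.041 without s3 and to -0.037 with upper-quartile scaling. The adaptor gene lat, whose product zap70 phosphorylates, went from 0.71 ± 0.16 to 0.41 ± 0.21 CPM and did not pass (log2 -0.78 ± 0.47, adjusted p = 0.164). A calcium-responsive factor gene, nfatc2b, was called lower (log2 -1.37 ± 0.46, adjusted p = 0.0208), but not by DESeq2 (adjusted p = 0.0749) nor without s1, s3 or wt13 (adjusted p = 0.0544, 0.0927 and 0.0645). Those that rose most encode partners in one signalling complex that many cell types use: bcl10 went up from 4.50 ± 0.24 to 18.8 ± 1.11 CPM (log2 2.06 ± 0.14, adjusted p = 2.24e-07), and malt1 from 2.99 ± 0.29 to 8.54 ± 0.92 CPM (log2 1.51 ± 0.18, adjusted p = 2.34e-05).

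**Figure D4:**
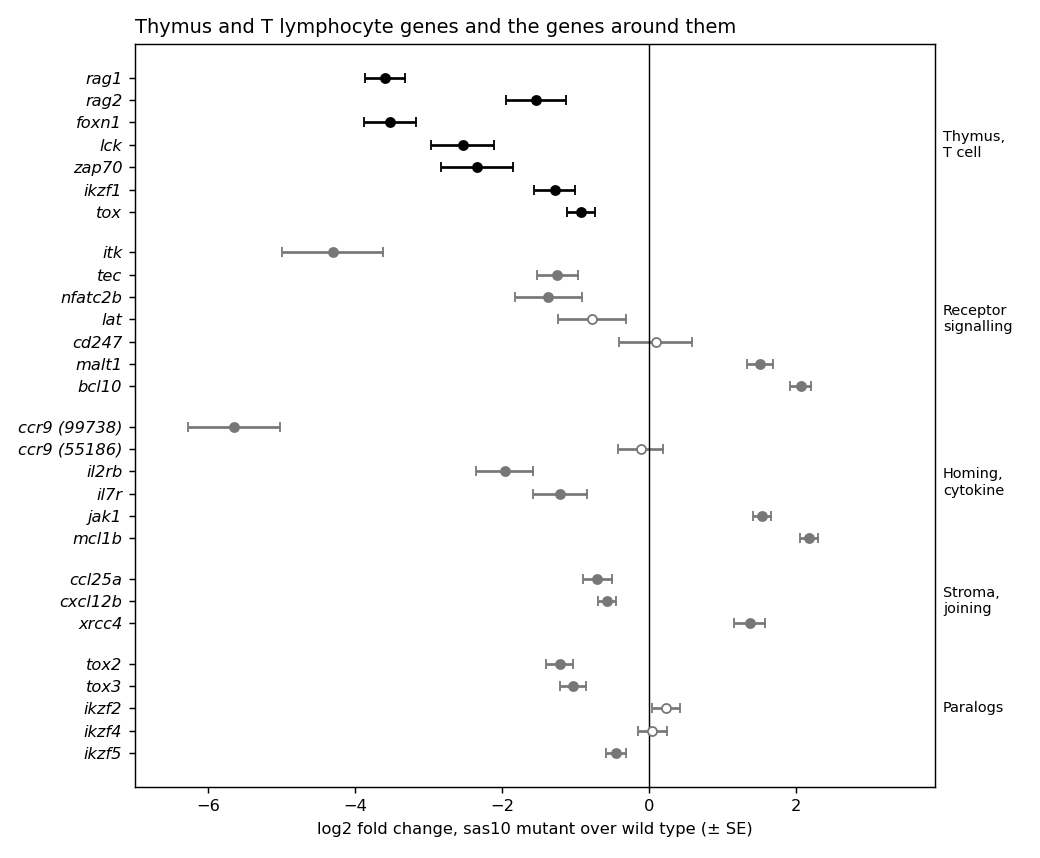
log2 fold change of mutant over wild type (± SE) for the 7 tested thymus and T lymphocyte genes, in black, and for genes around them, in grey. Filled points passed an adjusted p of 0.05 and open points did not. The ccr9 copies, marked by the last digits of their identifiers, lie at -5.65 and -0.11, and itk lies at -4.31.

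Homing and survival receptors of thymocytes were read next. The chemokine receptor CCR9 guides progenitors to the thymus, and its ligand is the chemokine encoded by ccl25a. Of 2 gene copies under the name ccr9, one (ENSDARG00000099738) had 36, 46 and 38 counts in wild type and 2, 0 and 0 in s1, s2 and s3, which is 59.7-fold more in wild type (counting interval 16.2 to 498.3). Without s1, which holds both mutant counts, the mutants were at 0. The other copy (ENSDARG00000055186) had 2.06 ± 0.68 CPM in wild type, against 1.9 ± 0.34 in the mutants (log2 -0.11 ± 0.31, adjusted p = 0.764), with a sign that turned without s2 or wt12.

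Of 4 listed receptor subunit genes for lymphocyte cytokines, 3 were called lower. Nothing is read from this count, because all 4 reached the filter's level in every wild type library but not in every mutant library. The gene il7r, for the receptor of interleukin 7, a survival factor of thymocytes, fell from 1.29 ± 0.28 to 0.55 ± 0.14 CPM (log2 -1.21 ± 0.37, adjusted p = 0.0125), and missed the threshold without s2 or wt13 (adjusted p = 0.0546 and 0.0624). The receptor gene il2rb fell from 1.76 ± 0.54 to 0.45 ± 0.12 CPM (log2 -1.97 ± 0.39, adjusted p = 0.00098). The other two, copies of the gamma chain gene, are named after their values were seen. Of these, il2rga was called lower (log2 -0.93 ± 0.37, adjusted p = 0.0457), but not by DESeq2 (adjusted p = 0.157), by voom (0.0528) or without a filter (0.0867), nor when any 1 of the 6 libraries was left out (adjusted p from 0.0581 without wt13 to 0.160 without wt12). The copy il2rgb did not pass (log2 -0.73 ± 0.39, adjusted p = 0.126), except without wt11 (adjusted p = 0.0422). Of the tested genes of the whole list, 5 reached the filter's level in all libraries of wild type only. In all, 8 of 18 were lower (44.4%) and 5 higher (median log2 -0.49), against 31.8% and 30.5% over all genes tested. Those that rose most, mcl1b (log2 2.18 ± 0.12, adjusted p = 4.43e-08), for a survival protein, and jak1 (log2 1.54 ± 0.12, adjusted p = 8.38e-07), for a kinase of cytokine receptors, are used by many cell types. They stood at 41.9 ± 4.98 and 76.1 ± 3.48 CPM in wild type, far above the listed thymus genes other than tox.

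Other genes listed for the thymic stroma and the pharyngeal pouch were mostly not called or higher. The ligand gene ccl25a had 9.16, 9.54 and 12.2 CPM in wild type and 7.91, 5.97 and 5.13 CPM in the mutants (log2 -0.70 ± 0.19, adjusted p = 0.00764). The genes ccl25b and il7, for interleukin 7, are named after their values were seen. Both are higher in the mutants in the authors' deposited table, with log2 fold changes of 0.595 (SE 0.15) and 0.61 (SE 0.26). The mean signal of ccl25b there is 759, against 157 for ccl25a. Of 26 tested genes of thymic epithelium and the pharyngeal pouch from which it derives, 3 were lower (5 with upper-quartile scaling), 9 higher and 14 not called (median log2 0.10). Among these 26, 1 reached the filter's level in all libraries of the mutants only. The shares over all genes tested were 31.8% lower and 30.5% higher. Another chemokine gene, cxcl12b, fell (log2 -0.57 ± 0.12, adjusted p = 0.00186). The Notch ligand gene jag1b was called lower (log2 -0.37 ± 0.13, adjusted p = 0.0316), but not by DESeq2 (adjusted p = 0.0623) nor without s1, s3, wt12 or wt13 (adjusted p = 0.142, 0.133, 0.0886 and 0.0608). The genes that rose most were epcam (log2 1.85 ± 0.16, adjusted p = 1.67e-06), for an epithelial adhesion protein, and ctsla (log2 1.68 ± 0.15, adjusted p = 2.18e-06), for a lysosomal protease, at 275 and 575 CPM in wild type and found in many epithelia. The summed level of the list rose from a range of 1253 to 1566 CPM to one of 3443 to 3542 CPM. Most of this rise was in epcam and ctsla: without these 2 genes the sum was 561.3, 516.6 and 505.2 CPM in wt11, wt12 and wt13 and 643.1, 663.0 and 662.4 CPM in s1, s2 and s3. The listed gene psmb11 had 1 count in wild type and 0 in the mutants, psmb11b had 0 and 1, and prss16 was not matched. With 25 counts in wild type and 38 in the mutants, aire was not called (edgeR adjusted p = 0.263). These genes are named after their values were seen. The part of the thymus in the levels of this list was not tested.

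The rest of the recombination machinery mostly rose. Of 18 tested genes listed for recombination and end joining, 12 were higher and 2 lower (median log2 0.57), against 30.5% higher and 31.8% lower over all genes tested. The end joining gene xrcc4 rose from 3.09 ± 0.79 to 7.98 ± 0.36 CPM (log2 1.37 ± 0.21, adjusted p = 0.000153). Another of them, nbn, for a sensor of DNA breaks, went up from 9.21 ± 1.74 to 18.8 ± 2.07 CPM (log2 1.03 ± 0.16, adjusted p = 0.000178). The genes that fell were poll, for a gap-filling DNA polymerase (log2 -0.59 ± 0.15, adjusted p = 0.00611), and hmgb1b, for an HMG box protein whose mammalian counterpart aids cutting by the recombinase (log2 -0.50 ± 0.12, adjusted p = 0.00302). These genes act in most cell types. The lymphocyte member, dntt, which adds bases at receptor joins, had 4 counts in wild type and 3 in the mutants, too few to compare.

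Relatives of the listed transcription factors were compared with them. Among other ikzf genes, ikzf5 was called lower (log2 -0.45 ± 0.13, adjusted p = 0.0103), but not without s1 or wt13 (adjusted p = 0.0544 and 0.0502). The values of ikzf2 (log2 0.23 ± 0.19, adjusted p = 0.312) and ikzf4 (log2 0.05 ± 0.19, adjusted p = 0.844) did not pass, and that of ikzf4 turned to -0.086 with upper-quartile scaling and to -0.065 without s2. Of the tox relatives, both tox2, from 12.7 ± 2.50 to 5.48 ± 0.81 CPM (log2 -1.22 ± 0.19, adjusted p = 0.000165), and tox3, from 23.2 ± 5.22 to 11.3 ± 1.68 CPM (log2 -1.03 ± 0.18, adjusted p = 0.00037), fell, beside the log2 fold change of -0.93 for tox. The relatives tox4a (log2 -0.0062 ± 0.12, adjusted p = 0.968) and tox4b (log2 -0.23 ± 0.24, adjusted p = 0.405), named after their values were seen, did not pass, and the sign of tox4a turned with several settings.

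Against 31.8% lower and 30.5% higher over all genes tested, 16 of 37 lymphoid transcription factor genes were lower (43.2%) and 6 higher (median log2 -0.22). The largest fall was that of bcl11ba (log2 -1.73 ± 0.20, adjusted p = 3.3e-05), a zinc finger gene of the T cell lineage that is also transcribed in neurons, at 33.1, 56.9 and 57.2 CPM in wt11, wt12 and wt13. The nuclear receptor gene rorca, a relative of the factor that keeps mouse thymocytes alive, fell from 21.7 ± 6.41 to 9.46 ± 0.98 CPM (log2 -1.20 ± 0.20, adjusted p = 0.000296). The genes runx1 (log2 2.08 ± 0.27, adjusted p = 5.2e-05) and ets1 (log2 1.74 ± 0.18, adjusted p = 8.86e-06), which act in blood and other tissues, rose.

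Markers of other blood cells and of cell division were read beside the lymphoid genes, and beside the 31.8% lower and 30.5% higher over all genes tested. Of 24 tested neutrophil, macrophage and pan-leukocyte genes, 7 were lower and 13 higher (median log2 0.88). Of the tested genes, 1 reached the filter's level in all libraries of wild type only and 1 in all libraries of the mutants only. The summed level of the list rose from a range of 333.5 to 408.7 CPM to one of 683.4 to 950.5 CPM. Among the largest rises in mean CPM were those of cebpa, from 29.7 to 151.4, and arhgdig, from 135.8 to 246.2. The genes cebpa, arhgdig and lyz are named after their values were seen. The gene mmp13a reached a mean of 97.5 CPM in the mutants (log2 6.46, and 5.82 without s2). Its mutant libraries were far apart, at 40.2, 168.5 and 83.6 CPM in s1, s2 and s3. The sum therefore does not stand for each gene of the list. Those lower included csf1rb, csf1ra and lcp1 (log2 -2.07, -1.17 and -1.11). The gene lyz of this list missed the filter, with 14 counts in wild type and 1 in the mutants. Of 12 tested stem and progenitor genes, 7 were lower and 2 higher (median log2 -0.61), although 4 were lower without s2 or without s3 and 1 was higher without s2, wt12 or wt13. Among these 12, 1 reached the filter's level in all libraries of wild type only. Of 27 tested proliferation genes, 7 were lower (25.9%) and 8 higher (median log2 0.10). The numbers lower were 4, 3, 4 and 4 without s1, s2, s3 and wt12, and those higher were 5 and 4 without s1 and wt12 and 4 with upper-quartile scaling. The part of these cells, or of cell division, in the lymphoid differences was not tested.

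**Figure D5:**
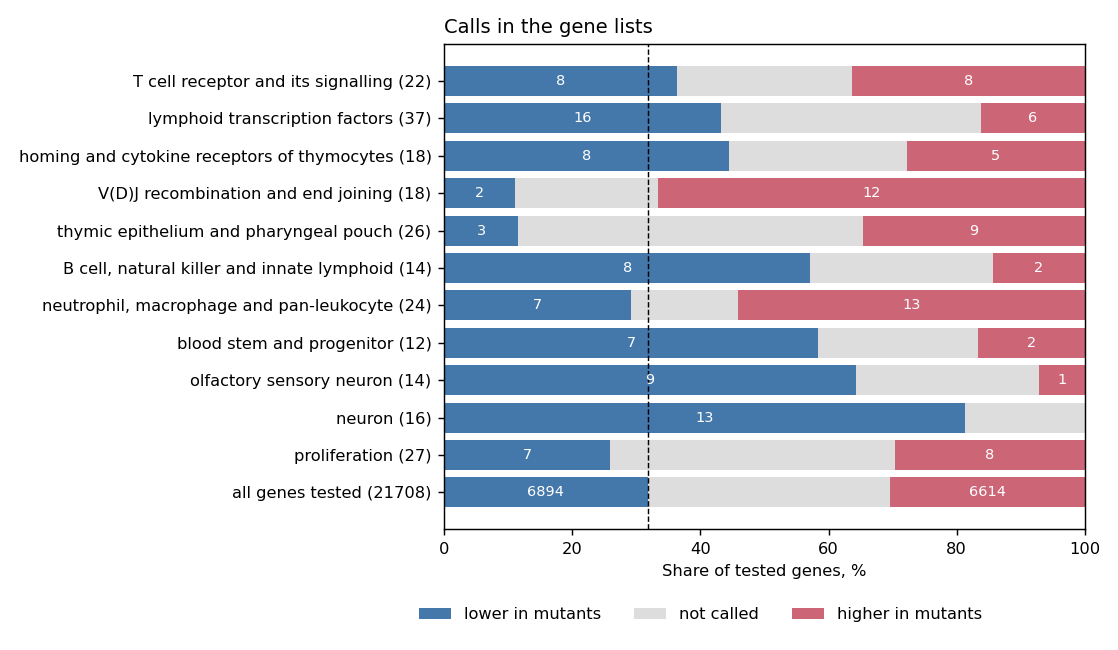
Share of tested genes called lower (blue), not called (grey) or higher (red) in the mutants for 11 gene lists and for all genes tested, with the number tested in brackets and counts in the bars. The dashed line marks the 31.8% of all tested genes that were lower. The share lower is greatest for neuron markers, at 13 of 16, and smallest for recombination and end joining genes, at 2 of 18.

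Which genes had a pattern most like that of rag1? Over the 6 libraries, by Euclidean distance of centred log2 CPM, the nearest of 19325 eligible genes were slc6a18 (distance 0.47), itih3a.1 (0.56), sult3st2 (0.60), slc25a29 (0.61) and zgc:77938 (0.62). Of these, slc6a18 encodes an amino acid transporter, itih3a.1 a heavy chain of a plasma protease inhibitor, sult3st2 a sulfotransferase and slc25a29 a mitochondrial carrier. They had log2 fold changes from -3.85 to -3.40, close to the value of rag1. Of the listed genes, foxn1 was nearest to rag1 at a distance of 1.28 and rank 196 among the tested genes, and rag2 stood at 2.83. With 2 groups of libraries, this measure mostly follows the size of the difference between genotypes.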

How the data were processed

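Raw counts per gene were deposited. They came from featureCounts 2.0.1 run by the authors on read pairs over exons (Ensembl release 105 of GRCz11, no strand setting), per the file headers, so reads of overlapping, antisense or near-identical genes are uncertain. Per the submitters' processing notes, fastp 0.20.0, HISAT2 2.2.1, Salmon 0.12 and DESeq2 1.40.2 were also used. The second deposited table, the authors' own comparison, gives a normalised mean signal, log2 fold changes with standard errors, a test score and p-values for 8574 genes, with adjusted p up to 0.0494 and log2 fold changes of at least 0.585 in size. Another table, of ribosomal RNA regions, was not used. Count columns show the genotype but no replicate number.

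The fit used edgeR 4.0.16 under R 4.3.3 (TMM scaling, default filter, which kept 21708 genes and asks for about 0.53 CPM in 3 libraries on sizes without scaling, robust quasi-likelihood test, Benjamini-Hochberg adjustment over all genes tested). Standard errors were derived from the test statistic. A group at 0 counts took a floor of 3 counts, and groups with 1 to 6 counts have exact 95% intervals. The fit was tested on simulated counts, in which 200 genes of all levels were changed and all genes shared a common dispersion. It recovered 22.4% of genes changed 1.5-fold, 77.6% of those changed 2-fold and 97.0% of those changed 4-fold. A gene that was not called may therefore still differ. In the data 13508 genes were called, and the rates were not taken apart for genes with few counts. They therefore do not give the recovery of such genes here. No library repeated another of its genotype (chi-square over degrees of freedom from 6.43 to 26.3).

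The 10 genes and the 11 lists of 272 symbols around them were chosen with earlier results of these data known. Symbols, in lower case, were looked up in a name table covering 29201 identifiers. Of all 282 symbols, 24 were not matched and 49 were taken as copies under a shared name. The text names all matched thymus and T lymphocyte genes, listed partner genes, and the called genes with the largest changes of each list (up to 3 lower and 2 higher), plus a few chosen after their values were seen, as stated there. For markers of other tissues counts are mostly given instead. Likeness to rag1 used log2 CPM with a prior count of 2 and genes averaging 1 CPM or more. As alternatives, scaling was changed to RLE or upper-quartile, the filter was dropped to 1 count or tightened to 1 CPM in 3 libraries with 100 counts in total, the model was changed to DESeq2 1.42.0 or to voom in limma 3.58.1, and single libraries were left out.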

Additional observations from a re-analysis of the deposited data

How the results depend on the processing

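The 7 tested thymus and T lymphocyte genes were lower with an adjusted p under 0.05 under all 12 alternatives, except that zap70 was not tested under the stricter filter. Their log2 fold changes ranged from -3.94 to -3.28 for rag1, -3.71 to -3.33 for foxn1, -3.02 to -2.21 for lck, -2.88 to -2.05 for zap70, -1.88 to -1.13 for rag2, -1.42 to -1.14 for ikzf1 and -1.13 to -0.77 for tox, with a largest adjusted p of 0.0336, for rag2 without s1. All alternatives draw on the same 6 libraries. Nothing is read from the count of 7, of which 5 reached the filter's level in all libraries of wild type only. Over all genes tested, 31.8% were lower in the main fit. Upper-quartile scaling moved the median of all genes by -0.13 and the share of calls that were lower from 51.0% to 58.8%. It gave 5 lower stroma genes and 4 higher proliferation genes, against 3 and 8. With 1 library left out, proliferation genes ran from 3 to 7 lower and 4 to 11 higher, and progenitor genes from 4 to 7 lower and 1 to 2 higher. Signs turned for cd247 (-0.037 with upper-quartile scaling, and -0.29 to 0.37 with single libraries left out), ikzf4 (-0.086 with that scaling, and -0.065 to 0.17) a ccr9 copy (ENSDARG00000055186, -0.35 to 0.077) and tox4a (0.0021 with RLE scaling, 0.022 without a filter, 0.013 with DESeq2, and -0.068 to 0.068), none of which was called. The wild type RPKM of foxn1 was 0.81 without wt13, against 0.83. The causes were not tested. Genes with a few counts, such as cd4-1, cd8a and cd8b, are limited by depth.

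No paired analysis was possible because the count columns carry no replicate numbers that match the labels.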

Other observations

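Other lymphocyte and antigen presentation genes were also read. The genes il13, cd79a and cd79b were chosen after their values were seen. Of 26 matched genes of B cells, natural killer cells and innate lymphoid cells, 14 were tested, 8 were lower and 2 higher (median log2 -0.91, against -0.04 over all genes tested). With 1 library left out, 6 to 7 were lower and 2 to 3 higher. Of the tested genes, 2 reached the filter's level in all libraries of wild type only and 1 in all libraries of the mutants only. The shares over all genes tested were 31.8% lower and 30.5% higher. Both genes for the invariant chain of class II antigen presentation fell: cd74a from 5.31 ± 1.17 to 0.37 ± 0.11 CPM (log2 -3.81 ± 0.32, edgeR adjusted p = 1.24e-06) and cd74b from 3.64 ± 0.47 to 0.55 ± 0.15 CPM (log2 -2.71 ± 0.30, adjusted p = 1.25e-05). The kinase gene syk, the relative of zap70 that acts in B cells and myeloid cells, fell from 9.77 ± 2.16 to 3.23 ± 0.54 CPM (log2 -1.60 ± 0.21, adjusted p = 4.84e-05). The genes called higher were cd22, for an inhibitory receptor of B cells in mammals, from 0.39 ± 0.24 to 2.82 ± 0.66 CPM (log2 2.83 ± 0.40, adjusted p = 8.9e-05, and log2 3.42 without wt11), and cd40, for a receptor of antigen-presenting cells, from 2.67 ± 0.32 to 5.88 ± 1.52 CPM (log2 1.13 ± 0.23, adjusted p = 0.00125). The cytokine gene il13 had 36 counts in wild type and 4 in the mutants, 8.95-fold more in wild type (counting interval 3.21 to 34.6). The B cell receptor genes cd79a and cd79b had 8 and 10 counts in wild type and 2 and 4 in the mutants, and their intervals include a ratio of 1.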
